A study of Mus musculus with 10 samples.

Results

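The deposited measurements cover 98 antisense RNA genes of the mouse kidney, out of 27902 annotated genes in the table. A gene was a member when GENCODE vM21 gives it the gene type antisense, when its most abundant transcript has the transcript type antisense, and when that transcript averaged at least 1 CPM (counts per 1e6 counts of the library) over the libraries. GENCODE vM21 lists 2959 antisense genes, of which 1599 were in the table and 1501 of those lay under 1 CPM. Members were thus selected on their mean level, and their levels are given as a description.

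RNA from whole kidneys of wild-type mice was sequenced on day 14. Quinolinic acid, which arises when the kynurenine pathway degrades tryptophan, was given to 5 mice at 0.5 g/L in the drinking water, and another 5 mice received vehicle. All 10 libraries carry 1 batch label and were made from total RNA. The labels used here give neither sex nor strain, and they leave unsaid if the kidneys were injured.

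An antisense RNA gene is transcribed from the DNA strand opposite to another gene, which is usually a protein-coding one. The RNA can arise at the same promoter region as the coding gene and run away from it, can run into the end of it, or can lie within its introns. Some antisense RNAs silence neighbouring genes in cis, as Airn and Kcnq1ot1 do at imprinted loci, some act in trans, and for most no function is known. Within exon bases that both share, only a count that uses the strand of each read can separate such an RNA from the messenger RNA.

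Where an antisense RNA faces the coding exons of its neighbour, its sequence holds the complement of the coding sequence. The following stretches, from GENCODE vM21 transcripts on GRCm38 (the assembly of mm10), are shown because all face the translation start of a coding gene of over 32 CPM, where the strand of the reads matters for the measurement. They are written 5′ to 3′ along the antisense RNA, and the capitals mark the bases opposite the start codon of the coding gene. Gm15441 faces Txnip, which encodes a thioredoxin-binding protein, at chr3:96558236-96558397 on the minus strand. Gm12999 faces Atpif1, the inhibitor of the mitochondrial ATP synthase, at chr4:132533482-132533568 on the plus strand. 4933431E20Rik faces Gstm5, a glutathione S-transferase, at chr3:107895954-107896013 on the minus strand, and 15 of these bases lie outside the coding exons. D130020L05Rik faces Ppp4r3a, a regulatory subunit of protein phosphatase 4, at chr12:101082729-101082870 on the plus strand.
Gm15441: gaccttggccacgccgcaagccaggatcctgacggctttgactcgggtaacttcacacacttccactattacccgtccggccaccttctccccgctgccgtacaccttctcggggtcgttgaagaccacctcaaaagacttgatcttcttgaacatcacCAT
Gm12999: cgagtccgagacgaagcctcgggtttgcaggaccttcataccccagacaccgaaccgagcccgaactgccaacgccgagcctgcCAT
4933431E20Rik: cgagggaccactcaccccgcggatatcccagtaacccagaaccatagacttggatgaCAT
D130020L05Rik: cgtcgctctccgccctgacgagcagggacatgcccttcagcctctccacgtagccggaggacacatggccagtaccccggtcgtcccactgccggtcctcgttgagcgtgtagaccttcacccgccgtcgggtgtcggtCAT
Of the 98 members, 38 face coding sequence of an opposite gene, 13 face a start codon, 10 face a stop codon and 3 face both.

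The values come from the authors' deposited table of edgeR's likelihood-ratio test, which holds per transcript the fold change on the log2 scale, the mean level, the test statistic and its p-values. Values of single mice were not analysed here, so neither library depth nor the scatter between mice can be stated. Intervals below are approximate 95% intervals obtained from the deposited statistics. Which treatment stands on top of the fold change is not recorded. Signs are therefore given as deposited, and a positive sign cannot be read as more or less RNA after quinolinic acid. Replicates are numbered per group in the labels, which describe 5 mice per group, so the tests measure the spread between mice as the authors modelled it.

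The tissue markers fitted whole kidney, with 5 proximal tubule markers between 103 and 1430 CPM, 2 markers of the thick ascending limb between 374 and 1274 CPM and the leukocyte marker Ptprc at 25.9 CPM. Markers of other tissues were low but had positive deposited log2 fold changes. The 3 adipocyte markers lay between 0.066 and 1.43 CPM with log2 fold changes of 3.77 to 4.61, and the 3 hepatocyte markers between 0.335 and 6.53 CPM with log2 fold changes of 1.20 to 1.98. The 2 nervous tissue markers lay between 0.0451 and 0.531 CPM with log2 fold changes of 1.68 to 2.29. The 2 muscle markers lay between 0.0245 and 0.0753 CPM with log2 fold changes of 0.01 to 0.87. None of these markers was called by edgeR at an adjusted p under 0.05, and the smallest adjusted p was 0.0748, for Adipoq. The part of these tissues in the values of the antisense RNAs was not tested. In bulk tissue fewer cells of a type and less RNA per cell cannot be told apart.

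How the counting treated strand is unstated in the labels, so antisense levels were set against the levels of the exons they face. Antisense genes were used that share at least 100 exon bases with a transcript, of at least 32 CPM, of an opposite coding gene. That transcript need not itself be of the coding type. The antisense level was compared with the one that its reads would give if counted on both strands and spread evenly along it. In 169 such pairs, involving 131 antisense genes mostly outside the member set, the deposited level minus that value had a median of -5.35 log2 units, which is 2.45% of the value. It was 2 or more log2 units below in 94.1% of the pairs. On the same strand the median difference was -0.06 log2 units over 10259 pairs with other transcripts of the coding gene, and 0.73 over 572 pairs with transcripts of another gene. On the opposite strand, pairs with genes of other classes, coding genes included, had a median of -1.27 over 536 pairs, and 42.9% of them were 2 or more log2 units below. The 16 antisense transcripts with at least 90% of their bases inside exons of such an opposite transcript had a median of 1.10% of the computed level. Most antisense levels were thus well below what counting without strand would give, for evenly spread reads. Gm17035, a transcript of 419 bases lying wholly opposite exons of Ndrg1 and picked here after its values were seen, had 0.236 CPM against a computed 96.9 CPM, while Ndrg1 itself had 668 CPM.

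**Figure D1:**
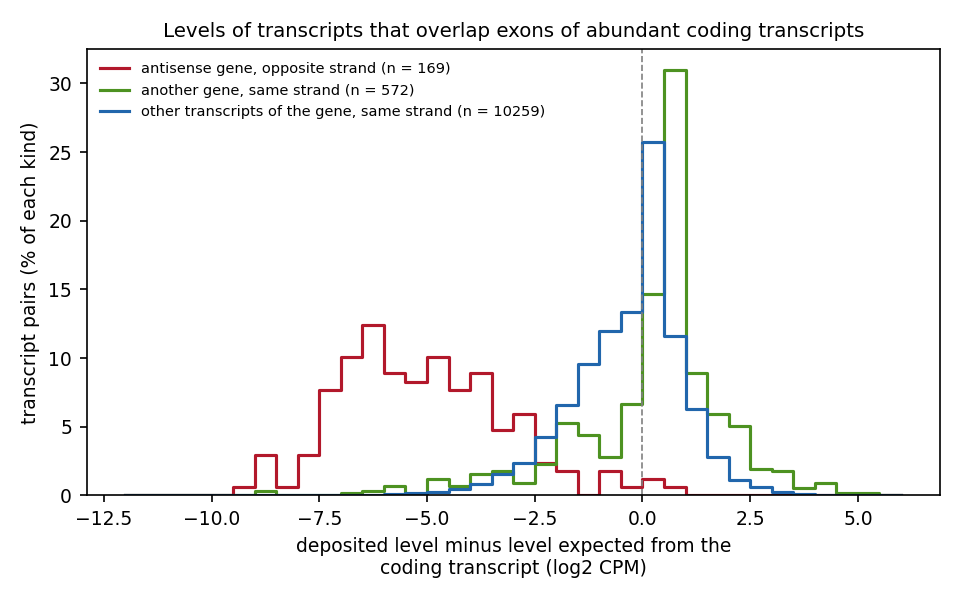
Deposited level minus the level computed from the overlapped transcript of a coding gene (x axis, log2 CPM) against the share of transcript pairs of each kind (y axis, percent). The 169 antisense pairs on the opposite strand lie mostly far below 0, with a median of -5.35, and the 10259 pairs of the same gene on the same strand centre near 0, with a median of -0.06.

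Of the members, 10 could be set against a transcript of an opposite coding gene in this way. That transcript is of the retained intron type for Dnase1 and H2-Q4, and of the nonsense-mediated decay type for Gstm5. Gm10138 had 6.98% of the level computed from Ivns1abp, Gm12999 had 7.57% of that from Atpif1, and Gm15441 had 7.81% of that from Txnip. Gm17690 opposite Mtmr11 had 11.1%, Gm15879 opposite Dnase1 12.5%, Gm11131 opposite H2-Q4 16.6% and D130020L05Rik opposite Ppp4r3a 21.6%. The levels of 3 members were nearer to the computed value. They were 65.5% for 9130221H12Rik opposite Gsk3a, 91.7% for 4933431E20Rik opposite Gstm5 and 145% for 0610040F04Rik opposite Bhlhe40. The last 2 share only 2.83% and 6.81% of their bases with that transcript of the coding gene, so most of their length lies outside the overlap. A share of reads from the coding strand was not tested for single members.

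The members were RNAs of low to moderate abundance. In the authors' deposited table, 40 members had 1 to 2 CPM, 52 had 2 to 10 CPM and 6 had 10 CPM or more, and together they summed to 358 CPM. The median of all 1599 antisense genes was 0.0372 CPM, and 1126 of them lay under 0.1 CPM. The members with the lowest levels were Gm16845 at 1.03 CPM, Gm16861 at 1.03 CPM and Gm11131 at 1.04 CPM. Just outside were Gm13528 at 0.987 CPM, Gm20632 at 0.986 CPM and 2900089D17Rik at 0.983 CPM, with log2 fold changes of 0.01, 0.30 and 0.10. The minimum of 1 CPM therefore falls within a continuous run of levels. Most members have no descriptive name, since 75 carry clone or model symbols and 17 of the other 23 end in os or ot, for opposite strand or overlapping transcript. The transcripts were spliced from a median of 2 exons, and 17 had a single exon. They lay on 20 chromosomes, and chromosome 11 held the most, with 12.

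Tug1 was the most abundant member, at 28.9 CPM in the authors' deposited table (chromosome 11, 3639785 to 3649673, minus strand, mm10). It is a long noncoding RNA that has been studied in podocytes, where it supports mitochondrial gene expression. Its log2 fold change was -0.13 (95% interval -0.33 to 0.07). The start of Tug1 lies 482 bases from that of Morc2a, a gene of a chromatin-silencing ATPase, which had 15.1 CPM and a log2 fold change of -0.04. Brip1os, at 25.6 CPM, overlaps exons of Ints2, a subunit of the Integrator complex at 19.7 CPM. The log2 fold changes were 0.03 (95% interval -0.15 to 0.22) for Brip1os and 0.05 for Ints2. These intervals hold for the most abundant transcript of each gene. The 5 Tug1 transcripts in the table ran from -0.75 to -0.13.

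Gm15564 had 21.0 CPM in the authors' deposited table from a transcript of only 402 bases (chromosome 16, 35966752 to 35983230, minus strand). Per kilobase it was the most abundant member, at 52.3 CPM per kb. Its log2 fold change was near 0 with a wide 95% interval, -0.56 to 0.55. The standard error, 0.284, stood at percentile 99.3 of genes of the same level, so its value was less precise than those of most genes of that abundance. Parp9, an ADP-ribosyltransferase family gene that Gm15564 lies opposite to without exon overlap, had 15.5 CPM and an interval of -0.27 to 0.25. Gm15638, at 11.2 CPM and opposite the phospholipase-domain gene Plcxd2, was similar, with an interval of -0.42 to 0.55 and a standard error at percentile 97.1. In all, 12 members lay above the 90th percentile of standard error at their level, while the median over the 98 members was percentile 48.1.

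The other members among the 10 most abundant had between 6.53 and 11.3 CPM in the authors' deposited table. Gm20687 had 11.3 CPM and a log2 fold change of 0.07, and it overlaps on its own strand the coding gene Thtpa as well, so reads of those 2 cannot be told apart by strand. Gt(ROSA)26Sor, the RNA of the locus used for targeted transgenes, had 10.8 CPM and a log2 fold change of 0.18 (95% interval -0.13 to 0.50). 4933431E20Rik had 9.34 CPM with -0.08, and Gm16536, which lies opposite the beta-secretase gene Bace1, had 7.92 CPM with 0.10. Hoxb5os had 6.54 CPM with 0.22, and Gm13111 had 6.53 CPM with -0.39. Among these 10 only the interval of Gm13111 lay on one side of 0.

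**Figure D2:**
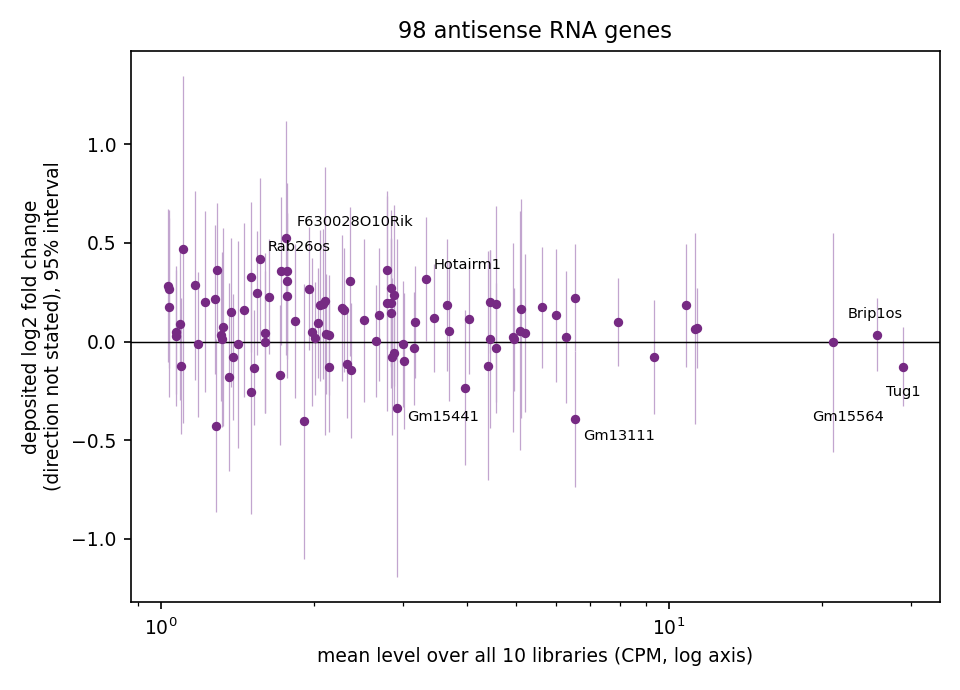
Mean level over all 10 libraries (x axis, CPM, log scale) against the deposited log2 fold change (y axis, direction not stated) for the 98 members, with approximate 95% intervals as vertical lines. Most points lie within 0.5 of 0, 94 of the 98 intervals include 0, and intervals are wider at low levels.

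The comparison asks which kidney RNAs differ between mice given quinolinic acid and mice given vehicle, and no antisense member passed the test. In the authors' deposited table, 0 of 98 members had an adjusted p under 0.05 by edgeR's likelihood-ratio test, and the smallest adjusted p was 0.792. The background was low as well, with 0.0141% of all 85107 transcripts and 0.0152% of the 13129 genes of at least 1 CPM called. At an unadjusted p under 0.05 there were 4 members (3 positive and 1 negative), which is 4.08% of the members. The same share among all genes of at least 1 CPM was 4.08%, of which 3.2% had positive signs and 0.884% negative ones, and among all transcripts it was 6.08%. At an unadjusted p under 0.01 there were 0 members, against 0.937% of genes of at least 1 CPM. The count of members with a small p was therefore at the background.

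The share of positive signs and the median fold change were near those of all genes of at least 1 CPM. A positive sign was found for 71 members and a negative one for 27, so 72.4% were positive, against 71.8% of all genes of at least 1 CPM. The median log2 fold change was 0.09, with the middle 50% between -0.01 and 0.20, and the median of all genes was 0.08. The range ran from -0.43 to 0.52, and only F630028O10Rik lay beyond 0.5. After subtraction of the trend with length and level, 46 members were positive and 52 negative, with a median of -0.03. That subtraction centres all genes near 0. The median standard error was 0.189 for the members and 0.141 for all genes of at least 1 CPM. Other classes of long noncoding RNA at the same level minimum had like medians. The median was 0.09 for 105 lincRNA genes, 0.11 for 107 processed transcripts and 0.10 for 19 bidirectional promoter RNAs.

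The 4 antisense RNAs at an unadjusted p under 0.05, none of which passed the adjustment, lay at different loci. Gm13111 (chromosome 4, 154637576 to 154644724, plus strand) stood at -0.39 on the log2 scale (95% interval -0.74 to -0.05, unadjusted p = 0.0252, adjusted p = 0.792, edgeR) at 6.53 CPM in the authors' deposited table. It overlaps no coding gene, and the nearest on the opposite strand is Prdm16, a transcription regulator 703 bases away with 7.10 CPM and a log2 fold change of -0.08. Gm16740 had 0.36 (95% interval 0.02 to 0.70, unadjusted p = 0.0382) at 1.29 CPM. It runs tail to tail into Mllt11, which had 0.26 and an unadjusted p of 0.0469 at 8.20 CPM, with 111 exon bases shared. Gm16740 is also head to head with Gabpb2, whose start is 459 bases away, with 328 exon bases shared. Gabpb2 had the opposite sign, at -0.21 with an unadjusted p of 0.0473 (edgeR) and 14.0 CPM. Rab26os had 0.42 (95% interval 0.01 to 0.83, unadjusted p = 0.0463) at 1.56 CPM. Its coding neighbour Rab26, a small GTPase of secretory granules, had 0.166 CPM and -0.25. Hotairm1, an RNA known from myeloid cells, had 0.32 (95% interval 0.00 to 0.63, unadjusted p = 0.0486) at 3.32 CPM.

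Further members among those with the smallest p of their sign had intervals that include 0 in the authors' deposited table. Not all of the negative ones had a small p. On the positive side 2900093K20Rik, opposite the oxidative stress gene Oser1, had 0.36 and an unadjusted p of 0.0633 at 1.72 CPM. Gm14964, opposite the neurexin gene Nrxn2, had 0.36 and an unadjusted p of 0.0752 at 2.79 CPM. F630028O10Rik (chromosome X, 96239926 to 96243636, plus strand) had the largest value, 0.52 (95% interval -0.07 to 1.12, unadjusted p = 0.0838), at 1.76 CPM. On the negative side Gm16685, head to head with the cytokine gene Il7, had -0.43 (95% interval -0.86 to 0.01, unadjusted p = 0.0558) at 1.28 CPM. 0610031O16Rik, opposite the alcohol dehydrogenase gene Adh7, had -0.41 at 1.91 CPM, with an interval from -1.10 to 0.29 and an unadjusted p of 0.254. 6330418K02Rik, tail to tail with the sulfotransferase gene Gal3st4, had -0.17 and an unadjusted p of 0.350 at 1.72 CPM. F630028O10Rik overlaps no opposite coding gene, and the coding genes paired with the other 5 had unadjusted p-values above 0.05.

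Most members lay opposite a coding gene, in varied arrangements. In GENCODE vM21 88 of 98 overlapped a coding gene on the opposite strand, and 22 overlapped more than 1. The arrangement was head to head with shared exon bases in 27, tail to tail with shared exon bases in 20, and one inside the other with shared exon bases in 14. In 26 the gene bodies overlapped and the exons did not, and in 1, Gm12999, all exon bases lay within exons of the coding gene. The other 10 overlapped no coding gene on the opposite strand. Of these, 1, Gm11767, overlapped the opposite lincRNA gene Gm11766, and 8 ended or began within 5 kb of an opposite coding gene. Examples are 2810001G20Rik at 16 bases from Cox10, a heme A synthesis gene, and Gm11767 at 65 bases from Baiap2. For the pairs below, where several coding genes were overlapped the one with the longest overlap was used, which left 87 pairs with both genes in the table.

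Levels of the coding genes opposite the members spread far more widely than those of the members, which were selected on their level. Per kilobase the coding gene was higher in 50 of 87 pairs in the authors' deposited table, with a median ratio of coding over antisense of 1.58. The 17 pairs whose starts lie within 1 kb had a median ratio of 8.30. Where exons overlapped, the median ratio was 2.44 over 62 pairs, and where they did not it was 0.68 over 25. The highest ratios of coding over antisense were 149 for Kcnq1ot1, annotated as 93092 bases with 0.0269 CPM per kb, opposite Kcnq1, and 128 for Gm10138 opposite Ivns1abp. Among other pairs Gm12999 had 5.87 CPM per kb against 221 for Atpif1, and Gm15879 had 5.09 CPM per kb against 131 for Dnase1, the secreted endonuclease. In the other direction the lowest ratio was 0.0098, for 1810021B22Rik opposite Panx2, a pannexin channel gene. That member also overlaps Trabd, by a shorter stretch, and there the coding gene was higher. Trabd had 12.5 CPM per kb against 1.64 for 1810021B22Rik. Tmem147os had 1.57 CPM per kb against 0.0185 for Gapdhs, the sperm form of a glycolytic enzyme, and Gm15564 had 52.3 CPM per kb against 4.35 for Parp9.

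**Figure D3:**
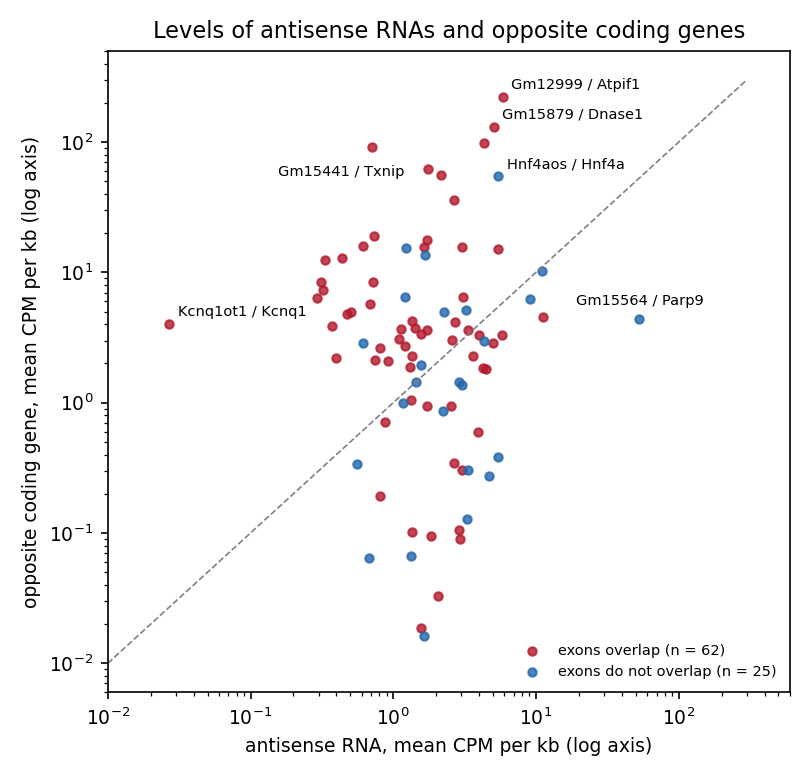
Mean level of the antisense RNA (x axis) against that of the opposite coding gene (y axis), both in CPM per kb on log scales, for 87 pairs. Red points share exon bases and blue points do not, the dashed line marks equal levels, and 50 of 87 points lie above it.

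Fold changes of antisense RNA and coding gene were both small. Over the 87 pairs the antisense value minus the coding value had a median of 0.05 on the log2 scale, with the middle 50% between -0.06 and 0.18, and 54 pairs had the same sign. In the 73 pairs whose coding gene had at least 1 CPM the median was 0.07, 61 differed by at most 0.25 and 47 had the same sign. The Spearman coefficient was 0.30 and Pearson's 0.29 over these 73 pairs, and 0.15 and -0.01 over all 87, as a description across genes measured in the same libraries. The 17 pairs with starts within 1 kb had a median difference of 0.01 and 12 with the same sign. The other 56 had a median difference of 0.08. This split uses the distance to the paired gene only. Some of the 56 members start within 1 kb of another coding gene, as Gm2415 does, 2 bases from Ctdspl. Of the coding genes in the 87 pairs 0 were called by edgeR in the authors' deposited table, where the smallest adjusted p was 0.794, and 2 had an unadjusted p under 0.05. Positive signs made up 71.8% of all genes of at least 1 CPM, so like signs are common between any 2 genes of the table.

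**Figure D4:**
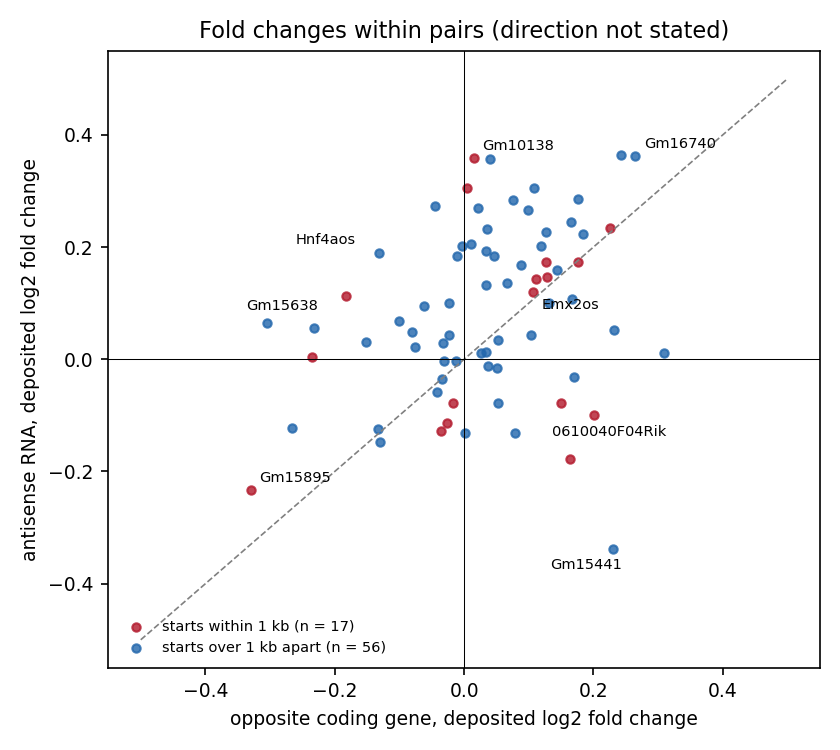
Deposited log2 fold change of the opposite coding gene (x axis) against that of the antisense RNA (y axis) for the 73 pairs whose coding gene had at least 1 CPM, with starts within 1 kb in red and farther apart in blue. Distances are to the paired gene only, and some members in blue start within 1 kb of another coding gene. The dashed line marks equal values, 47 of 73 points have the same sign in both, and Gm15441 stands lowest.

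Fold changes differed within some pairs by more than 0.5, and others described here differed by less. In the authors' deposited table Gm15441, at 2.92 CPM, stood at -0.34 on the log2 scale (95% interval -1.20 to 0.52), and Txnip had 0.23 (95% interval -0.11 to 0.57) at 174 CPM. Gm15441 is described in mouse liver as an RNA induced by PPAR alpha that lowers Txnip. The 2 intervals overlap, and the standard error of Gm15441 stood at percentile 99.0 for its level, so no difference within the pair can be read. 0610040F04Rik had -0.10 against 0.20 for Bhlhe40, a transcription factor of the circadian clock at 54.8 CPM. Gm15895 had -0.23 (95% interval -0.63 to 0.16) and Il34, the ligand of the CSF1 receptor whose start is 286 bases away, had -0.33 (95% interval -0.68 to 0.03). This pair had the most negative coding value among those of at least 1 CPM. The largest difference, 2.28, was that of Sp3os, at 0.19, over the gene model Gm11084, and the next was 1.53, of Tmem147os, at 0.02, over Gapdhs. The coding genes of these 2 pairs had only 0.0211 and 0.0270 CPM. Sp3os also overlaps Sp3, by a shorter stretch, and Sp3 had 25.3 CPM and a log2 fold change of 0.08. 9530082P21Rik, at 0.03, differed by -0.94 from Kremen2, a Dickkopf receptor at 0.137 CPM, and Gm26982, at 0.04, by 0.42 from the ghrelin gene Ghrl at 0.0498 CPM. 9530082P21Rik also shares 1071 exon bases with Flywch1, which had 7.31 CPM and -0.12. The gene that vM21 names Trmt61b in the antisense class had 0.16 at 2.29 CPM, opposite Spdya at 0.170 CPM.

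Transcription factors of kidney development and tubule identity carried 4 members, of which 3 are described here. Of 25 such coding genes, 24 had at least 1 CPM. Hnf4aos (chromosome 2, 163493807 to 163541720, minus strand) had 4.57 CPM and 0.19 (95% interval -0.31 to 0.69) in the authors' deposited table. Hnf4a, the nuclear receptor needed for proximal tubule maturation, had 237 CPM and -0.13 (95% interval -0.60 to 0.34), and the 2 share no exon bases. Emx2os and Emx2, a homeobox gene of urogenital development, start 263 bases apart and are head to head. They had 3.45 CPM with 0.12 (95% interval -0.15 to 0.39) and 16.6 CPM with 0.11 (95% interval -0.13 to 0.34), so both intervals cover nearly the same range. Hoxd3os1, included because it spans the listed gene Hoxd8, had 1.96 CPM and 0.27 (95% interval -0.04 to 0.58). Hoxd8 had 54.8 CPM and 0.19 (95% interval -0.07 to 0.46). Hoxd3, which is not on the list and has the longest overlap with Hoxd3os1, had 0.02.

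Hox clusters held 4 members whose paired coding gene is a Hox gene, and the adult kidney keeps expressing many Hox genes by position along the body axis. In the authors' deposited table Hoxb5os had 11.0 CPM per kb and Hoxb6 10.2 CPM per kb, with log2 fold changes of 0.22 (95% interval -0.05 to 0.49) and 0.18 (95% interval -0.09 to 0.46). Hoxb3os had 5.98 CPM and 0.13, and Hoxb3 had 9.69 CPM and 0.03. Hotairm1 and Hoxd3os1 are described above. All 4 Hox antisense RNAs had a positive sign, of 71 positive among 98, and none passed the adjustment.

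Antisense RNAs known from imprinting and X inactivation were present in part. Of 11 listed, 8 were in the table and 5 had at least 1 CPM, of which Airn and Kcnq1ot1 belong to the antisense class. Airn, whose transcription across the Igf2r promoter silences Igf2r in cis, had 2.78 CPM and 0.19 (95% interval -0.35 to 0.74) in the authors' deposited table. Igf2r had 45.6 CPM and 0.03 (95% interval -0.20 to 0.26). Kcnq1ot1, which silences genes of its imprinted domain in cis, had 2.51 CPM and 0.11 (95% interval -0.31 to 0.52), and Kcnq1, a potassium channel gene, had 12.1 CPM and 0.17. Tsix and Nespas were under the minimum, at 0.0822 and 0.0240 CPM. Alleles were not separated in these values.

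The paired coding genes included 0 from a list of 25 genes, made up of chosen immediate early genes, core clock genes and coding genes called in these data, and 0 from a list of 32 genes of kynurenine and NAD metabolism, the pathways that make and use quinolinic acid. Neither list is complete for its subject, and Bhlhe40, described above, was not on the first. Among those 25 genes 4 were called in the authors' deposited table at an adjusted p under 0.05. Those called genes were put on the list because they were called.

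Dnm3os and F630028O10Rik contain microRNA genes on their own strand and were picked for that after their values were seen. Dnm3os (chromosome 1, 162217623 to 162225550, plus strand), an RNA of connective tissue cells opposite the dynamin gene Dnm3, contains Mir199a-2 and Mir214. Its level was 4.40 CPM and its log2 fold change -0.12 (95% interval -0.70 to 0.46) in the authors' deposited table. F630028O10Rik contains Mir223, the gene of a microRNA abundant in granulocytes. Mature products, from RefSeq on GRCm38.p6, are shown 5′ to 3′ with the seed (bases 2 to 8) in capitals. They are shown because they are known products of these RNAs and differ in their seeds. The products mmu-miR-214-5p and mmu-miR-223-5p of the same hairpins are left out.
mmu-miR-199a-5p: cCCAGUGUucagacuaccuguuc
mmu-miR-199a-3p: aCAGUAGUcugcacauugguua
mmu-miR-214-3p: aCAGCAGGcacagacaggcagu
mmu-miR-223-3p: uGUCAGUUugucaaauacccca
In the authors' deposited table the hairpin genes had 0.0216 CPM for Mir199a-2, 0.802 CPM for Mir214 and 0.0502 CPM for Mir223. The protocol in the labels is for total RNA and does not select small RNA, so these levels do not measure the mature microRNAs. A snoRNA gene, Snord60, lies within Rab26os and had 0.0504 CPM.

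Fold change depended on transcript length in these libraries, and the members followed that in part. Over all genes of at least 1 CPM the Spearman coefficient between log2 fold change and length was -0.51, and over the 98 members it was -0.23, both as descriptions in the authors' deposited table. The 36 members under 1000 bases had a median of 0.18, as had all genes of that length, and 83.3% of these members and 89.2% of these genes had a positive sign. The 39 members of 1000 to 3000 bases had a median of 0.05, against 0.13 for all genes of that length, and 69.2% were positive, against 87.9%. The 23 members of at least 3000 bases had a median of 0.03, against 0.02, and 60.9% were positive, against 56.2%. Compared at like length, the members of 1000 to 3000 bases thus had fewer positive signs than all genes, which was not tested. They were not matched in level or precision. Their median level was 2.35 CPM against 11.8 CPM for all genes of that length, and their median standard error 0.189 against 0.146. The members were shorter than other genes, with a median length of 1591 bases against 3046.

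**Figure D5:**
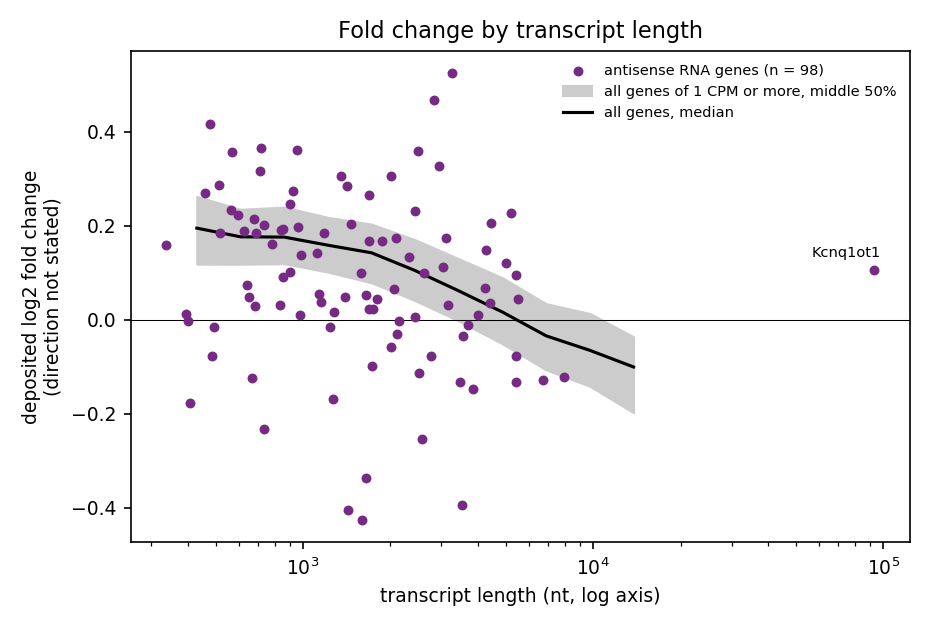
Transcript length (x axis, bases, log scale) against the deposited log2 fold change (y axis, direction not stated) for the 98 members, over the median and middle 50% of all genes of at least 1 CPM. Short members lie around the same median as other short genes, 0.18, and Kcnq1ot1 stands alone at 93092 bases.

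Many members were represented by several transcripts, and these differed. Of 59 such members, 23 had transcripts with different signs in the authors' deposited table. The range of log2 fold change within a member had a median of 0.12 and a highest value of 1.07. With the median over a gene's transcripts in place of the most abundant one, 62 of 98 members were positive and the median was 0.07. Transcripts of a gene share reads and are not independent measurements.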

How the data were processed

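Whole-kidney RNA of 5 mice given quinolinic acid and 5 given vehicle was sequenced, and samples were grouped by labelled treatment. FastQC 0.11.2, STAR 2.5.3a, featureCounts (Subread 1.4.6), edgeR and the build mm10 are named in the submitters' processing notes. Strand setting, filters and annotation release are not given in the sources used here. The deposited values, per the file headers, are log2 fold changes and mean log2 CPM, the likelihood-ratio statistic (a score), and the p-value and adjusted p-value, made by the authors with edgeR for 85107 transcripts. The deposited adjusted p equals the Benjamini-Hochberg value over all of them.

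GENCODE vM21 genes were joined to the transcripts by identifier, without its version. Of them 83446 (98.0%) matched and 1661 did not. Each gene stood by its transcript of highest mean CPM. The size of each log2 fold change over the root of its likelihood-ratio score served as its standard error, and 1.96 of these to each side as the 95% interval. It covers what the authors' model covers. Trends on log2 length and level were removed with loess (span 0.5, R 4.3.3). Overlaps and other values were computed in Python 3.11.15 with pandas 2.3.3, and the steps were tested on simulated data. A test on counts had been foreseen, and the authors' test took its place because the values are a finished comparison.

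The members, the lists and the rule for naming were chosen with earlier results of these data known. Named were the 10 members of highest level, the 6 of each sign with the smallest p, and the 4 with the largest and 4 with the smallest difference from their coding gene among members of at least 1 log2 CPM. List members and the 3 genes on each side of the level minimum were named too. Genes named outside this rule illustrate the arrangement, the Hox clusters, the strand comparison, the error or the small RNAs, and were chosen after their values were seen. The alternatives tried were other level minima, transcripts, thresholds, overlap rules and coding genes, and the removal of trends. Some genes under this rule are not reported here.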

Additional observations from a re-analysis of the deposited data

How the results depend on the processing

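The median log2 fold change of the members, 0.09 as reported, was 0.07 with a minimum of 1 log2 CPM (58 genes), 0.08 with the longest transcript and 0.07 with the median over transcripts. It was 0 with no level minimum (1596 genes) and -0.03 with trends on length and level removed. The value of 0 rests mostly on the 1501 antisense genes under the minimum, whose median level was 0.0343 CPM. Of these, 692 had a positive sign, 577 a negative one and the rest neither. Their quartiles were -0.30 and 0.45, and their median standard error was 0.798. The median of 0 therefore cannot be read as an absence of change. The count called was 0 at adjusted p under 0.05, at 0.1, and when adjusted over 1 transcript per gene. The 4 members at unadjusted p under 0.05 became 0 at a threshold of 0.01, since fewer genes can pass a stricter one. The median difference within pairs, 0.05 over 87 pairs, ranged from 0.03 with overlap of exons only to 0.06 with the most abundant coding gene. With trends removed it was 0.01 over the 73 pairs whose coding gene had at least 1 CPM, against 0.07 in the same pairs before removal. No paired analysis was possible because the values are a finished comparison with none for single libraries. Leaving out single mice was not possible for the same reason, and the depth of the libraries is unknown.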
